A study of Mus musculus with 9 samples.

Results

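Saa1, Saa2, Saa3, Lcn2, Hp and Orm1 encode secreted acute-phase proteins, and their expression was compared among mouse adipose-derived stem cells (ASCs) whose tissue of origin was subcutaneous fat, abdominal fat or the fat around blood vessels. These 6 of the 54532 genes in the count table were picked by name, with their levels in these 3 groups already known. Their differences between groups are therefore given as a description, without a test. Bulk mRNA sequencing was performed on 3 libraries of each kind of ASC, 9 in all. Every group came from C57BL/6 mice, and cultures at passages 3 to 6 were harvested. All cells were grown in the same stem cell medium, which contained fetal bovine serum, recombinant human LIF and recombinant human FGF, so each group had been exposed to LIF, a cytokine of the IL-6 family. No genotype or treatment differed between the groups, which are called Sub-ASC, Ab-ASC and PVASC in that order of tissues. The age of the mice, and whether the 3 libraries of a group came from separate mice or cultures, are not given in the sources used here, so p-values measure only the spread between these libraries.

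In the acute-phase response, IL-1, TNF and cytokines of the IL-6 family act through NF-kB, STAT3 and C/EBP factors to raise the transcription of a set of plasma proteins, mainly in the liver. Adipose tissue makes several of the same proteins, and Saa3 is the serum amyloid A gene of the mouse that is best known for its expression outside the liver. Serum amyloid A proteins are apolipoproteins of high-density lipoprotein, haptoglobin (Hp) binds free haemoglobin, lipocalin 2 (Lcn2) binds bacterial iron carriers, and orosomucoid (Orm1) is a carrier of small molecules in plasma.

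The 3 Saa members lie side by side on chromosome 7, in the coordinates of mm10. Saa3 (ENSMUSG00000040026, minus strand, 46711998 to 46715700) is followed by Saa4, which starts 12297 bases further on. Saa1 (ENSMUSG00000074115, minus strand, 46740497 to 46742980) lies 7893 bases beyond Saa4, and Saa2 (ENSMUSG00000057465, plus strand, 46751790 to 46754313) lies 8809 bases beyond Saa1. Saa1 and Saa2 are thus turned away from each other and have their promoters in the interval between them. Lcn2 (ENSMUSG00000026822) spans 32384633 to 32388252 of chromosome 2, minus strand. Hp (ENSMUSG00000031722) spans 109575128 to 109579172 of chromosome 8, also minus strand, and Orm1 (ENSMUSG00000039196) spans 63344560 to 63348163 of chromosome 4, plus strand. No annotated gene overlaps any of the 6.

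Promoters from RefSeq (GRCm38.p6) matched Saa1, Saa2, Saa3 and Lcn2. They are shown because 1 feature is common to the 4 of them: the 250 bases before each start hold exactly 1 match to TTNNGCAA, the letters of a C/EBP site, on either strand. Such a match stands in 9.56% of 32851 mouse promoters of the same length. Capitals mark the match. The sequences are given without bases that belong to an annotated exon, and for Lcn2, where 197 of the 250 bases are exonic in some transcript, only the match with 11 bases on each side is given. Their positions are chr7:46742981-46743230 (minus strand) for Saa1, chr7:46751583-46751789 (plus strand) for Saa2, chr7:46715701-46715926 (minus strand) for Saa3 and chr2:32387937-32387966 (minus strand) for Lcn2.
Saa1: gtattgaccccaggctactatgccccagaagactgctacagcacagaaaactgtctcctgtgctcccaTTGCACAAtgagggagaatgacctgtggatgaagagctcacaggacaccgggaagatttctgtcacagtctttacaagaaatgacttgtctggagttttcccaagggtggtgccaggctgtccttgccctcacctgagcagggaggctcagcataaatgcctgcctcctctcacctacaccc
Saa2: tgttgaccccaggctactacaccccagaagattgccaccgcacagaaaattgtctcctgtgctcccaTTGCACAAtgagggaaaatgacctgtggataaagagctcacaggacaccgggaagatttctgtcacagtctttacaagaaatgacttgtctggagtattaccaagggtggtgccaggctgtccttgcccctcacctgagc
Saa3: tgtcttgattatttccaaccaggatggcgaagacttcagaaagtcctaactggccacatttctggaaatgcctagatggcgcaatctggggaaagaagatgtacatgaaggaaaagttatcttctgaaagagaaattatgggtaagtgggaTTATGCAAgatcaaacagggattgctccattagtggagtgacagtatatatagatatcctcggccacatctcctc
Lcn2: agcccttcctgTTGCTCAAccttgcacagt

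The match lay 182 to 175 bases before the start in Saa1 and 183 to 176 bases before it in Saa2, within otherwise near-identical sequence: the full windows of the pair were the same at 238 of 249 aligned bases (95.6%). In Saa3 it lay closer, 99 to 92 bases before the start, and in Lcn2 216 to 209 bases before it. None of the 4 windows held TATAAA, TTCNNNGAA (the letters of a STAT site) or the NF-kB consensus, which were found in 12.4%, 7.02% and 7.25% of all promoters. These letters were chosen with earlier results known, and neither a match nor its absence says whether a factor binds there.

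The transcripts of Saa1 and Saa2 are similar, so some reads could be hard to assign, depending on a read length that is not given. Their main coding transcripts were identical at 94.4% of 606 aligned bases, and 51 of the 560 stretches of 50 bases in Saa1 occurred unchanged in Saa2, although none of 100 bases did. Saa3 stood further off, with 76.0% identity to Saa1 and 9 shared stretches of 50 bases, and with 74.8% identity to Saa2. Orm1 was 91.0% identical to Orm2. The values of Saa1, Saa2 and Orm1 are for this reason less certain than those of Saa3, Lcn2 and Hp.

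Between 20524173 and 29881036 reads were counted per library. Counts were scaled to a common library total (CPM) with TMM factors, and 3 reads, taken as the smallest measurable count, correspond to 0.0916 to 0.161 CPM. Limits of this kind cover counting error only. All 10 ASC markers, among them Pdgfra, Pdgfrb, Thy1, Cd44 and Dcn, had reads in every library, although at unequal levels: Ly6a was at 2047 CPM in Sub-ASCs, 21.8 in Ab-ASCs and 111 in PVASCs. Each of these markers passed an adjusted p of 0.05 by edgeR's quasi-likelihood test in every comparison, as did 70.4% of all genes tested between PVASCs and Sub-ASCs, 75.3% between Ab-ASCs and Sub-ASCs and 56.9% between PVASCs and Ab-ASCs. In bulk samples, fewer cells that express a gene and less RNA of it per cell cannot be told apart.

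Saa3 had more reads than any other gene in Sub-ASCs, where it led by CPM though not per length. There it had 257738, 206209 and 288351 reads, which was 0.795 to 1.08% of all reads in a library, and it had rank 1 by CPM among the 26479 genes with a read there. Ab-ASCs had 971, 1095 and 1014 reads, and PVASCs had 422, 374 and 407. The mean level was 10046 ± 1688 CPM (SD, n = 3) in Sub-ASCs, 48.6 ± 3.46 in Ab-ASCs and 12.8 ± 0.144 in PVASCs. The groups did not overlap, and the lowest Sub-ASC library, replicate 2 at 8098 CPM, was far above the highest of the others, Ab-ASC replicate 1 at 52.1 CPM. Sub-ASCs exceeded PVASCs 783-fold and Ab-ASCs 207-fold, whereas Ab-ASCs exceeded PVASCs 3.79-fold.

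Saa1 and Saa2 are the genes of the circulating serum amyloid A proteins. Saa1 had 453, 362 and 441 reads in Sub-ASCs and 0 reads in each of the 6 other libraries. Saa2 had 119, 90 and 117 reads in Sub-ASCs, 0 in Ab-ASCs, and 2 in PVASC replicate 1 with 0 in the remaining PVASC libraries. Sub-ASCs were the only group with either gene above 3 reads. With 3 reads per library as the limit elsewhere, Saa1 (16.8 ± 2.61 CPM) exceeded the level in PVASCs by at least 175-fold and that in Ab-ASCs by at least 118-fold. For Saa2 (4.37 ± 0.789 CPM) the bounds were 45.4-fold and 30.6-fold.

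The zeros of Saa1 and Saa2 need to be read against Saa3. In the Sub-ASC libraries, Saa1 reads were 0.176, 0.176 and 0.153% of Saa3 reads, and Saa2 reads were 0.0462, 0.0436 and 0.0406%. Saa1 shares 9 stretches of 50 bases with Saa3, and whether some reads counted for Saa1 came from Saa3 was not tested. At the Saa1 to Saa3 ratio pooled over Sub-ASCs, the Ab-ASC libraries would hold 1.62 to 1.83 reads of Saa1 and the PVASC libraries 0.624 to 0.705. Summed over a group this comes to 5.14 reads in Ab-ASCs and 2.01 in PVASCs, and 0 were counted in each. For Saa2 the sums at the pooled ratio are 1.33 and 0.521 reads, and 0 and 2 were counted. Per library all of these values are under the limit of 3 reads, and the bounds on Saa1 and Saa2 given above are smaller than the falls of Saa3. At this depth it was thus not detectable per library whether either gene fell as far as Saa3 or further. The summed 5.14 reads of Saa1 in Ab-ASCs are above that limit, and their difference from the 0 counted was not tested. Saa4, the constitutively expressed member of the family, had 114, 90 and 135 reads in Sub-ASCs and none elsewhere, at 0.0436 to 0.0468% of Saa3 reads.

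In Sub-ASCs, Hp came next after Saa3 among the members. It had 20804, 20868 and 23877 reads in Sub-ASCs, 1323, 1340 and 1353 in Ab-ASCs, and 332, 310 and 320 in PVASCs. Its mean level was 874 ± 47.9 CPM in Sub-ASCs, 63.6 ± 6.41 in Ab-ASCs and 10.3 ± 0.199 in PVASCs. The 3 groups were well apart, by 13.7-fold between Sub-ASCs and Ab-ASCs and by a further 6.19-fold between Ab-ASCs and PVASCs. Of the 3 members with reads in every library, Hp had the widest gap between Ab-ASCs and PVASCs.

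Lcn2 had 1884, 2341 and 2195 reads in Sub-ASCs, 150, 154 and 127 in Ab-ASCs, and 108, 105 and 108 in PVASCs. Its mean level was 85.5 ± 5.78 CPM in Sub-ASCs, 6.85 ± 1.19 in Ab-ASCs and 3.43 ± 0.129 in PVASCs. Sub-ASCs were 12.5-fold above Ab-ASCs and 24.9-fold above PVASCs, and the Ab-ASC libraries, at 5.66 to 8.05 CPM, lay 1.998-fold above the PVASC libraries, at 3.30 to 3.56 CPM. Lcn2 thus had the same order of groups as Saa3 and Hp, with the smallest steps of these genes.

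Orm1 was not detectable in any group. It had 2 reads in Sub-ASC replicate 3, 2 in PVASC replicate 2 and 0 in each of the 7 other libraries, below the limit of 3 reads throughout, and no fold was calculated. Its neighbours in the same cluster, Orm2 and Orm3, had at most 3 reads and 2 reads in a library.

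**Figure D1:**
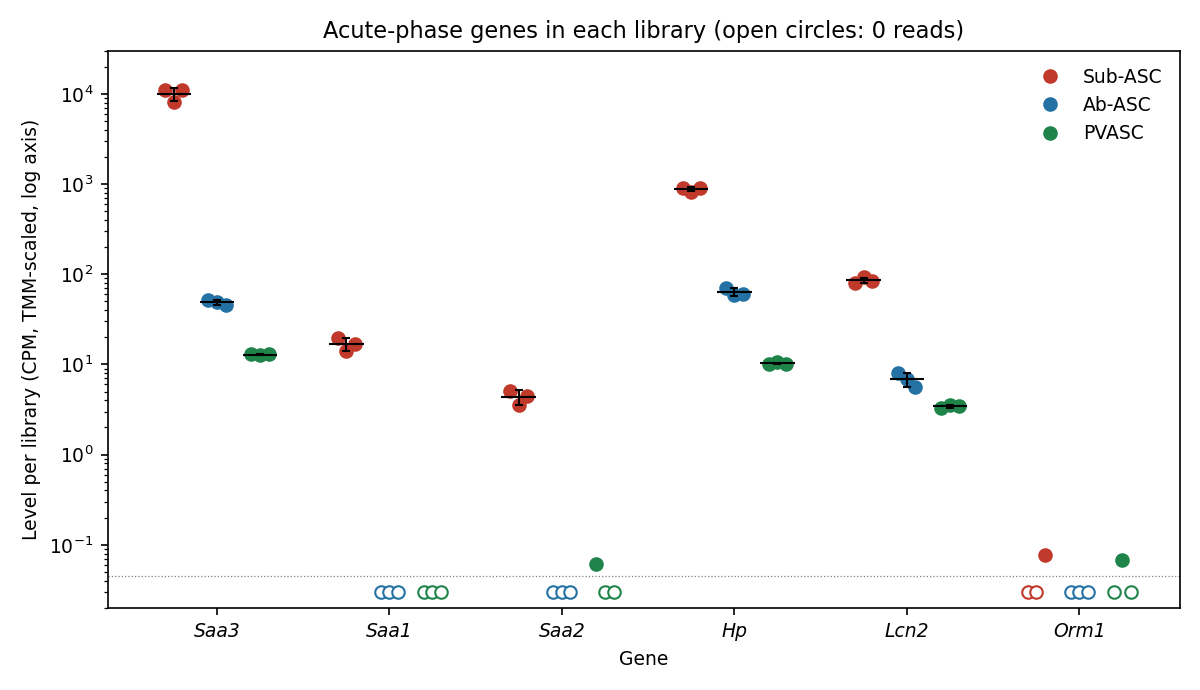
Level of each gene in each library in CPM on a log axis, for Sub-ASC, Ab-ASC and PVASC libraries (3 points each), with the mean and SD as bars where all 3 libraries had reads. Open circles under the dotted line are libraries with 0 reads. Saa3, Hp and Lcn2 fall from Sub-ASC to Ab-ASC to PVASC without overlap, Saa1 and Saa2 are at 14.2 to 19.4 and 3.53 to 5.10 CPM in Sub-ASC libraries, and Orm1 is at or near 0 everywhere.

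On the log2 scale of the fit, PVASCs against Sub-ASCs differed by -9.61 (SE 0.14) for Saa3, -6.41 (SE 0.088) for Hp and -4.64 (SE 0.11) for Lcn2. Ab-ASCs against Sub-ASCs differed by -7.69 (SE 0.13), -3.78 (SE 0.076) and -3.65 (SE 0.10), and PVASCs against Ab-ASCs by -1.92 (SE 0.11), -2.63 (SE 0.079) and -0.99 (SE 0.13), in the same order of genes. With Saa1 and Saa2 at their bounds, the median over the 5 members with a value was -6.41 for PVASCs and -4.94 for Ab-ASCs against Sub-ASCs, and over the 3 measurable in both PVASCs and Ab-ASCs it was -1.92. The medians over all 16526 genes tested were -0.01, -0.03 and -0.06. The groups differed in much of the transcriptome: at an adjusted p under 0.05, the shares of genes called were the 70.4%, 75.3% and 56.9% given above. Because the members were chosen on these same contrasts, nothing is read from their separation against those shares. Saa1 and Saa2 passed the filter on low counts through Sub-ASCs alone, and Orm1 did not pass it.

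Levels were compared between genes per length, as FPKM, the TMM-scaled CPM of a gene divided by its listed length in kb. In Sub-ASCs the order was Saa3 (3855 ± 648 FPKM), Hp (544 ± 29.8), Lcn2 (32.6 ± 2.20), Saa1 (6.79 ± 1.05) and Saa2 (1.73 ± 0.313), and no neighbours in this order overlapped in their libraries. In the other groups Hp came first, at 39.6 ± 3.99 FPKM against 18.7 ± 1.33 for Saa3 in Ab-ASCs and at 6.39 ± 0.124 against 4.92 ± 0.0554 in PVASCs, with Lcn2 below both. So the order of Saa3 and Hp depended on the tissue of origin, when lengths as listed were used. By FPKM, Saa3 had rank 4 in Sub-ASCs and rank 7069 among the 27361 genes with a read in PVASCs. The listed length was longer than the main coding transcript for each member but Orm1, and with the length of that transcript (555 bases for Saa3, 1345 for Hp) Saa3 was at 18102 FPKM and Hp at 650 in Sub-ASCs. On that scale Saa3 was above Hp also in Ab-ASCs (87.6 against 47.3 FPKM) and in PVASCs (23.1 against 7.63), so the order of these genes outside Sub-ASCs rests on the choice of length.

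Within Sub-ASCs the members did not vary as a block. Replicate 2 was the lowest of the 3 libraries for Saa3, Saa1, Saa2 and Hp, whereas for Lcn2 it was the highest, at 91.9 CPM against 80.8 and 83.6. The spread relative to the mean was wider for the Saa genes than for Hp and Lcn2. Replicate 2 also had the highest sum of the other acute-phase genes (8284 CPM) and of the interferon-response genes (2199 CPM). Replicates of a group have no order, and with 3 libraries these patterns are values only.

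Other acute-phase genes were examined from a list of 25, of which 15 had enough reads to be tested. By edgeR's quasi-likelihood test with adjustment over all genes tested, 14 of the 15 were lower in PVASCs than in Sub-ASCs and none was higher, beside 35.7% of all genes that were higher in Sub-ASCs. All 15 were lower in Ab-ASCs than in Sub-ASCs, beside 38.3% of all genes. The medians of the list were -5.12 and -5.04, or -5.13 and -4.90 with genes at or under 3 reads set at their bound. With no low-count filter 1 gene of the list was higher and 14 lower in PVASCs, beside 6285 higher and 6491 lower over all genes. In Ab-ASCs 15 were lower under that setting, beside 7061 over all genes. Between PVASCs and Ab-ASCs the list was split, with 5 higher and 4 lower in PVASCs, beside 24.7 and 32.1% of all genes, and a median of -0.19 (0.03 without PVASC replicate 3). These 9 of 15 genes called are near the 56.9% of all genes. Since Saa4, Crp, Serpina3m and others passed the filter through Sub-ASCs alone, the counts were repeated for genes with at least 10 reads in every library: 9 were left, and all 9 were lower in both PVASCs and Ab-ASCs than in Sub-ASCs, with smaller medians of -4.22 and -4.23. The list was chosen with earlier results of these data known. The untested genes were Orm2, Orm3, Apcs, Itih3, Itih4, Serpina1a, Fga, Fgb, Fgg and Hamp, most of them made chiefly by hepatocytes.

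Among these genes, complement C3 had the highest CPM in Sub-ASCs. It was at 3412, 3556 and 3491 CPM in Sub-ASCs, 215, 203 and 214 in Ab-ASCs, and 53.5, 54.2 and 51.6 in PVASCs, a fall from Sub-ASCs of 16.5-fold and 65.6-fold. Serpina3n, a serine protease inhibitor, was at 2253 to 2297 CPM in Sub-ASCs, 7.15 to 12.1 in Ab-ASCs and 43.1 to 46.0 in PVASCs. Unlike C3, Saa3, Hp and Lcn2, it was thus lower in Ab-ASCs than in PVASCs (log2 fold change of PVASCs against Ab-ASCs 2.30, SE 0.128). Lbp, which binds bacterial lipopolysaccharide, was at 505 ± 9.77 CPM in Sub-ASCs and 32.9-fold and 44.1-fold lower in Ab-ASCs and PVASCs. Steap4, a metalloreductase induced by inflammatory cytokines in adipose tissue, was at 313 ± 12.6 CPM in Sub-ASCs and 51.5-fold and 105-fold lower.

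The haem-binding Hpx was at 16.9 ± 0.198 CPM in Sub-ASCs and at 0.565 and 0.492 in Ab-ASCs and PVASCs. Ceruloplasmin (Cp), a copper-carrying ferroxidase, was at 230 ± 21.8 CPM in Sub-ASCs, 16.98 ± 3.48 in Ab-ASCs and 55.8 ± 1.44 in PVASCs. Among the pentraxins, Ptx3, which is made by stromal and endothelial cells, kept a sizeable level in each group, at 1088, 565 and 146 CPM, while Crp had 93, 90 and 104 reads in Sub-ASCs and at most 2 in any other library. A2m was the exception to the list in PVASCs, at 1.06 ± 0.258 CPM against 1.57 ± 0.360 in Sub-ASCs (adjusted p = 0.145 by edgeR's quasi-likelihood test), and it was at 0.0889 CPM in Ab-ASCs.

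**Figure D2:**
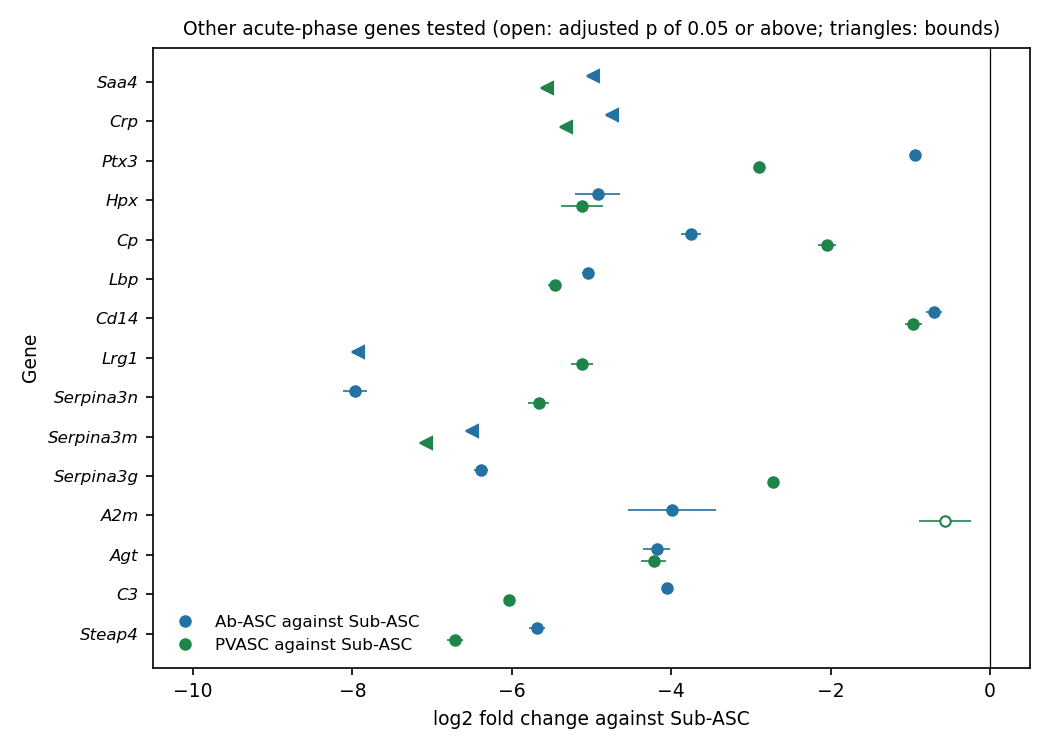
log2 fold change against Sub-ASC (x axis) of the 15 other acute-phase genes tested, for Ab-ASC (blue) and PVASC (green), with the SE as bars. Filled circles passed an adjusted p of 0.05, the open circle (A2m in PVASC) did not, and triangles are bounds for genes with at most 3 reads in each library of Ab-ASC or PVASC. Every point is below 0.

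The cytokines that induce acute-phase genes, listed together with the IL-1 receptor antagonist Il1rn, were called in both directions. Of 11 on the list 10 were tested, and against Sub-ASCs 6 were higher and 3 lower in PVASCs (median 0.82), beside 34.7 and 35.7% of all genes. In Ab-ASCs 6 were higher and 2 lower (median 1.04), beside 37.0 and 38.3% of all genes. Lif was at 28.1, 26.0 and 25.6 CPM in Sub-ASCs, 438, 414 and 425 in Ab-ASCs, and 79.1, 83.8 and 79.2 in PVASCs, so the cells with the most Saa3 had the least transcript of this ligand. Il6 was lowest in Sub-ASCs as well, at 37.2 ± 2.75 CPM against 99.8 ± 10.3 in Ab-ASCs and 59.7 ± 1.56 in PVASCs. Il11 was at 2.38 CPM in Sub-ASCs and 48.1-fold and 21.1-fold higher in Ab-ASCs and PVASCs, and Clcf1, a ligand of the same family, rose from 21.9 to 137 and 73.4 CPM.

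Il33 was the opposite case. This cytokine, an alarmin of the IL-1 family held in the nucleus of stromal cells, was at 651, 696 and 636 CPM in Sub-ASCs, 4.99 to 7.71 in Ab-ASCs and 13.7 to 14.7 in PVASCs. Its receptor gene Il1rl1 was likewise higher in Sub-ASCs, at 1270.4 ± 22.8 CPM against 260 ± 11.2 and 132 ± 1.68. Tnf was low throughout, at 2.71, 1.91 and 0.437 CPM, and Il1b had too few reads to be tested.

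Receptors for these cytokines were listed together with Tlr2, Tlr3, Tlr4, the adaptor Myd88 and the glucocorticoid receptor Nr3c1. The genes of this list were mostly higher in Sub-ASCs. All 15 of the list were tested, and all 15 were lower in PVASCs (median -1.64), beside 35.7% of all genes. In Ab-ASCs 14 were lower (median -2.23), beside 38.3% of all genes, and none was higher in either group. Il6st, the gp130 chain shared by receptors of the IL-6 family, was at 1758 ± 41.1 CPM in Sub-ASCs, 356 ± 6.64 in Ab-ASCs and 418 ± 11.8 in PVASCs. Lifr, the chain that binds LIF, was at 127 ± 11.6, 17.05 ± 2.01 and 12.9 ± 0.345 CPM, and Osmr at 560 ± 36.7, 250 ± 32.1 and 279 ± 4.91. The IL-1 receptor Il1r1 was at 877, 162 and 151 CPM, the IL-17 receptor Il17ra at 376, 57.1 and 46.0, and Tlr2 at 38.6, 6.90 and 3.99. Il1rap in Ab-ASCs, at 104 ± 24.6 CPM against 110 ± 3.87 in Sub-ASCs, was the receptor not called. Between PVASCs and Ab-ASCs 5 genes of this list were higher and 6 lower in PVASCs, beside 24.7 and 32.1% of all genes.

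The transcription factors and feedback genes had smaller medians. Of 14 tested, 12 were lower in PVASCs than in Sub-ASCs and none was higher (median -1.07), beside 35.7 and 34.7% of all genes. In Ab-ASCs 8 were lower and 4 higher (median -0.26), beside 38.3 and 37.0%. Socs3, a feedback inhibitor of gp130 signalling that is itself induced by STAT3, was at 455 ± 26.4 CPM in Sub-ASCs, 58.9 ± 2.68 in Ab-ASCs and 65.4 ± 3.51 in PVASCs. Stat3 was at 604 ± 5.85, 290 ± 8.59 and 274 ± 3.72 CPM. Among the C/EBP genes, Cebpa was at 116, 40.5 and 20.6 CPM, Cebpb at 260, 181 and 98.1, and Cebpd at 244, 84.2 and 115. Nfkb2, which encodes an NF-kB subunit, was at 75.1 CPM in Sub-ASCs and 74.8 in PVASCs but 142 in Ab-ASCs, and Nfkbiz, a co-activator of Lcn2 transcription, was at 86.0, 69.3 and 86.8. Hnf4a, which drives acute-phase genes in liver, had too few reads to be tested.

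The receptors and binding partners of the encoded proteins were mixed. Of 10 tested, 8 were lower and 1 higher in PVASCs than in Sub-ASCs (median -1.54), beside 35.7 and 34.7% of all genes. In Ab-ASCs 5 were lower and 3 higher (median -0.26, or 0.03 without Ab-ASC replicate 2), beside 38.3 and 37.0%, and these 8 of 10 called are near the 75.3% of all genes. Slc22a17, a receptor for lipocalin 2, was at 14.7 ± 1.27 CPM in Sub-ASCs and 2.88 and 4.11 in Ab-ASCs and PVASCs. Lrp2 (megalin), another receptor for lipocalin 2, was instead at 0.148, 3.89 and 2.02 CPM. Its level in Sub-ASCs was close to the limit of 3 reads, 0.114 to 0.129 CPM there. Mmp9, whose product forms a complex with lipocalin 2, was at 5.13, 8.58 and 1.83 CPM. Hmox1, which degrades the haem that haptoglobin and hemopexin help to clear, was highest in Ab-ASCs, at 1238 ± 106 CPM against 537 ± 9.27 in Sub-ASCs and 459 ± 15.5 in PVASCs.

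**Figure D3:**
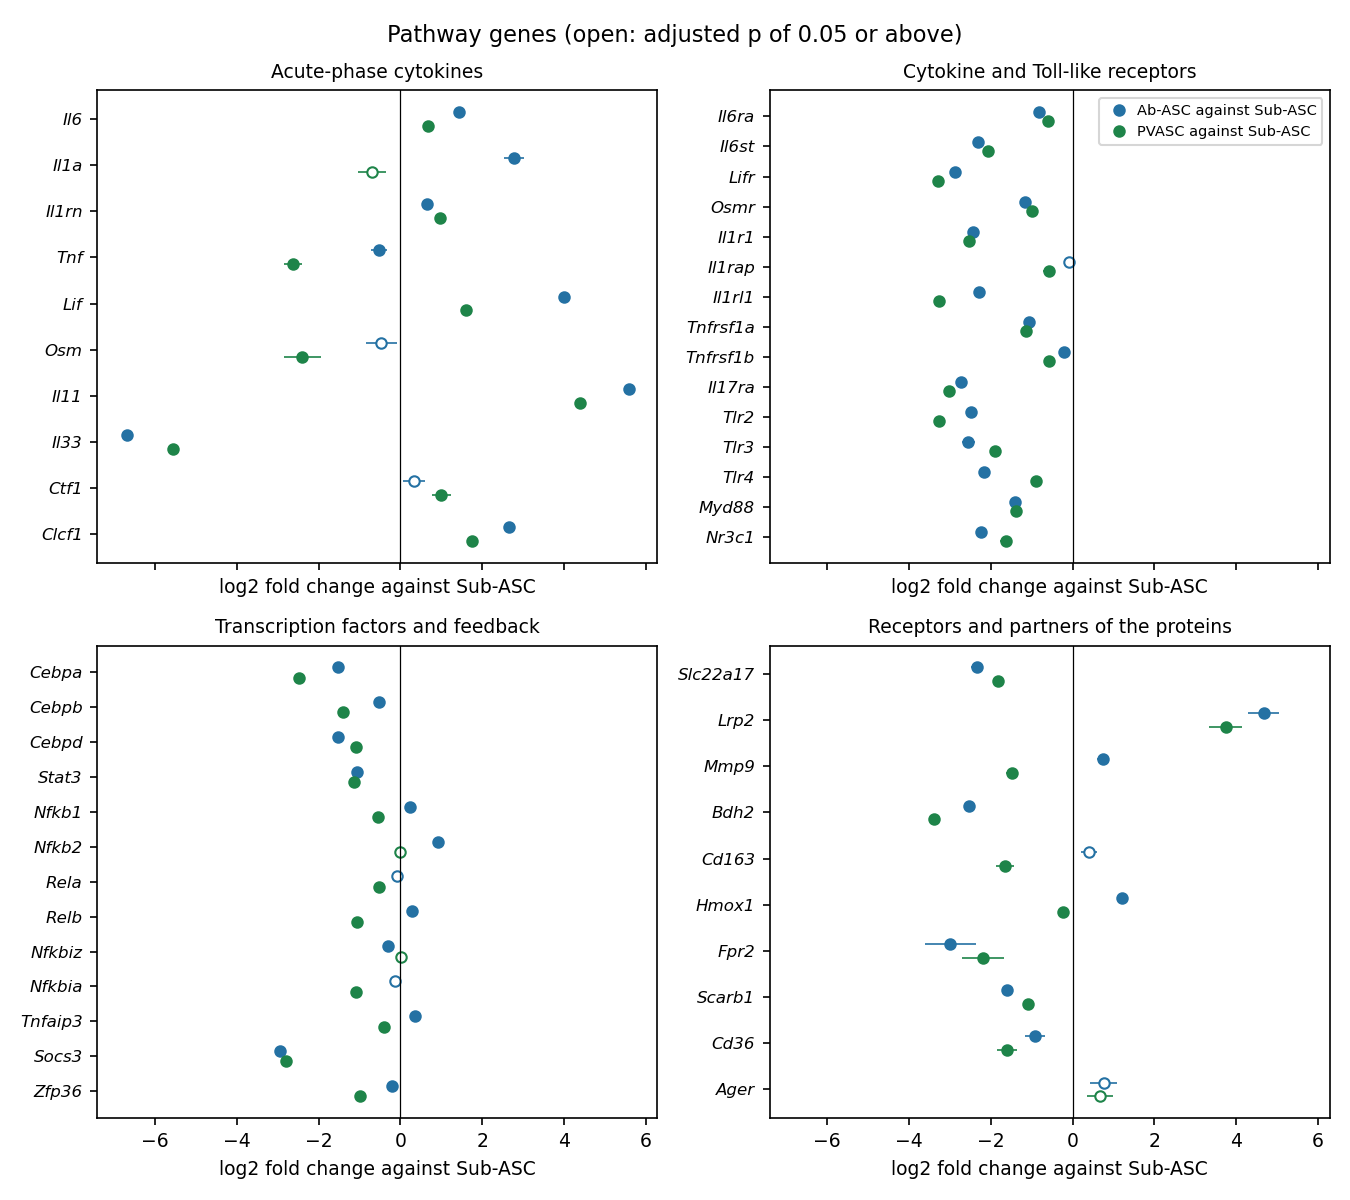
log2 fold change against Sub-ASC (x axes, the same scale in each panel) of the tested cytokines, receptors, transcription factors with feedback genes (13 of the 14 tested), and binding partners, for Ab-ASC (blue) and PVASC (green), with the SE as bars. Filled circles passed an adjusted p of 0.05. All points of the receptor list are below 0, while 6 of the 10 genes of the cytokine list were called higher in each of Ab-ASC and PVASC.

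Genes around the members were examined within 200 kb. Around the Saa members 12 of 20 neighbours were tested, and 4 were lower and 1 higher in PVASCs than in Sub-ASCs (median -0.18), beside the 70.4% called over all genes. The 4 lower neighbours were Saa4, Tph1, Hps5 and Ldha, of which only Saa4 is of the Saa family. Saal1, whose end lies 1.32 kb from Saa3, was at 18.3, 20.9 and 16.9 CPM in Sub-ASCs, Ab-ASCs and PVASCs. It was called in neither comparison with Sub-ASCs (log2 fold changes 0.19 and -0.11). On the other side, Hps5, 6.15 kb from Saa2, was lower by much less than the Saa genes in both Ab-ASCs (-0.72) and PVASCs (-0.74). Tph1, at 3.14 CPM in Sub-ASCs, 0.386 in Ab-ASCs and 0.116 in PVASCs, was the one neighbour outside the family with a large fall. Ldha, further out, was at 1409, 2072 and 1241 CPM.

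**Figure D4:**
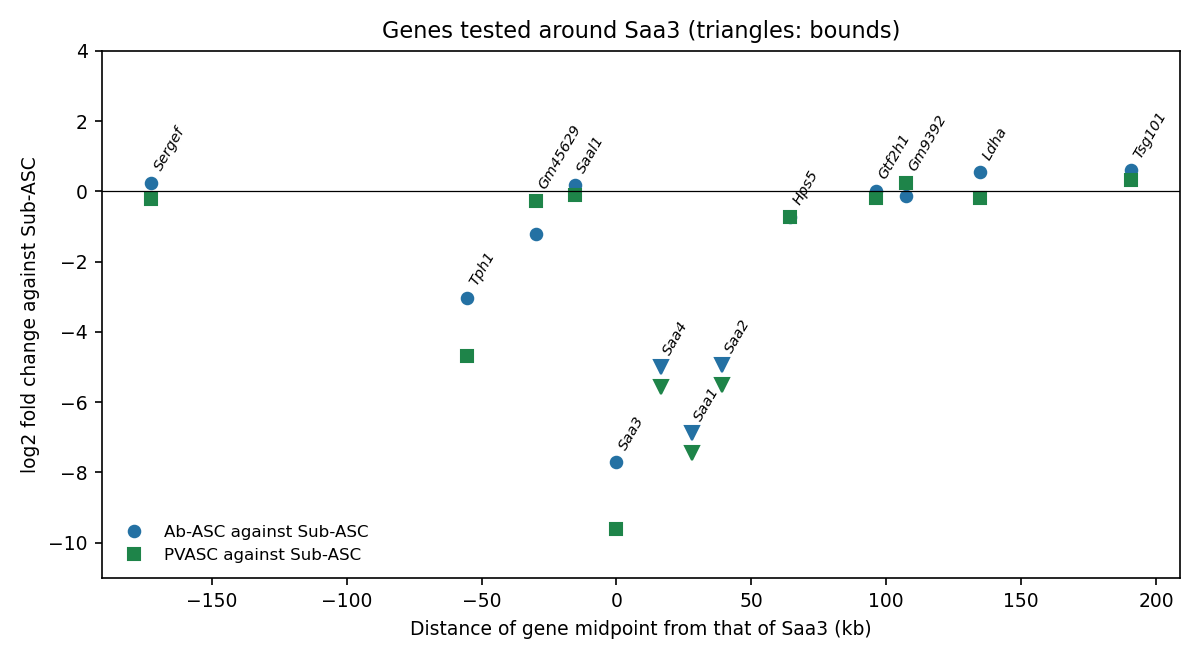
log2 fold change against Sub-ASC (y axis) of the genes tested within 200 kb of Saa3 by the distance of their midpoints from that of Saa3 in kb, for Ab-ASC (circles) and PVASC (squares). Triangles are bounds for genes with at most 3 reads in each library of that group. Saa1 to Saa4 and, less far, Tph1 lie well below the line, while Saal1 and Gtf2h1 lie near it.

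Around Hp, 8 of 10 neighbours were tested, and their log2 fold changes of PVASCs against Sub-ASCs ranged from -0.80 to 0.09, with 4 lower and none higher, beside 70.4% of all genes called. The nearest, Txnl4b, 1.08 kb away, was at 7.06, 7.82 and 5.56 CPM in Sub-ASCs, Ab-ASCs and PVASCs. Around Lcn2, 14 of 25 were tested, with 7 lower and 3 higher in PVASCs, between -1.47 and 1.37, and these 10 of 14 called are near the same 70.4%. Near Orm1, 4 of 11 were tested, among them Col27a1 at 23.5, 6.02 and 5.93 CPM and Whrn at 3.29, 39.4 and 16.6 CPM, in the same order of groups. None of the tested genes beside Hp or Lcn2 fell as far as these members in either comparison with Sub-ASCs.

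The 3 tested genes with the profile closest to a member over the 9 libraries were found by the root mean square distance of centred log2 CPM. None is given for Saa1 and Saa2, whose log2 CPM outside Sub-ASCs is set by the prior count. For Saa3 they were Mcpt2 (distance 0.398), AW112010 and Ggt5, of which Mcpt2 and AW112010 were at 0 and 0.0736 CPM in PVASCs, so that their distances rest on the prior count as well. Hp was closest to Cadm3 (0.226), Nfasc and C3, and Lcn2 to Anpep (0.117), Ndufa4l2 and Tent5c. C3 was the other acute-phase gene found in this way. The libraries fall into 3 groups, so such a likeness mostly reflects the 3 group means.

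Other programmes also differed between the groups, and their part in the results was not tested. All 10 interferon-response genes of a list were higher in Sub-ASCs in both comparisons. Their summed levels were 2106 to 2199 CPM in Sub-ASCs, 99.0 to 112 in Ab-ASCs and 107 to 110 in PVASCs. In Ab-ASCs 1 of the 10 had at most 3 reads in each library, so its fold there is a bound. Of all genes, 35.7% were higher in Sub-ASCs than in PVASCs and 38.3% higher than in Ab-ASCs. All 10 proliferation genes were lower in Sub-ASCs, with sums of 71.6 to 78.7 CPM against 807 to 899 and 783 to 797, beside 34.7% of all genes that were lower in Sub-ASCs than in PVASCs and 37.0% lower than in Ab-ASCs. Of 7 mesothelial and epithelial markers 6 were tested and all 6 were higher in Ab-ASCs than in Sub-ASCs, beside the same 37.0%, while in PVASCs 5 were higher and 1 lower. In Sub-ASCs 3 of the 6 had at most 3 reads in each library, and 2 had at least 10 reads in every library, both of them higher in each comparison with Sub-ASCs. The markers had sums of 1.75 to 2.47, 80.3 to 84.3 and 29.9 to 30.7 CPM, and Lrrn4 was at 0 in Sub-ASCs. The 6 endothelial markers summed to 176 to 191, 63.6 to 66.1 and 763 to 767 CPM. All 4 of the 7 adipocyte markers that were tested were higher in Sub-ASCs in both comparisons, beside the same 35.7 and 38.3%, at 156 to 171 CPM in sum against 37.7 to 41.2 and 48.9 to 51.3, although Adipoq was at 0.666 CPM there and Lep at 0 in every library. With at least 10 reads in every library 2 of these were left, both higher in Sub-ASCs.

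Cells that are known for these proteins in blood and liver were looked for as well. Neutrophil and macrophage markers summed to 240 to 245 CPM in Sub-ASCs, 306 to 399 in Ab-ASCs and 292 to 301 in PVASCs, of which Lyz2 made up the greater share, and the neutrophil genes Ly6g and Elane had too few reads to be tested. Of 12 such markers 10 were tested, with 5 higher and 4 lower in Ab-ASCs than in Sub-ASCs and 2 higher and 5 lower in PVASCs. These 7 called in PVASCs are near the 70.4% of all genes, and the 9 in Ab-ASCs stand beside 75.3%. Ptprc, a marker of all leukocytes, was higher in Sub-ASCs, at 8.93 CPM against 1.41 and 2.81. Hepatocyte markers summed to 0.838 to 1.20, 0.577 to 5.90 and 2.08 to 5.72 CPM, and 3 of the 10 were tested. In PVASCs 2 of these were higher than in Sub-ASCs and 2 higher than in Ab-ASCs, beside 34.7 and 24.7% of all genes. With the replicate number as a block, 1 was called between PVASCs and Sub-ASCs. Between Ab-ASCs and Sub-ASCs none of the 3 was called by edgeR and 1 was called lower in Ab-ASCs by DESeq2, beside 38.3% lower over all genes by edgeR. With no low-count filter all 10 were tested, and 5 were higher and 1 lower in Ab-ASCs. Of all genes, 6534 were higher and 7061 lower in Ab-ASCs under that setting. The Ab-ASC libraries were unequal here: replicate 1 had reads of all 10 markers, at 5.90 CPM in sum. Replicates 2 and 3 had reads of 3 and 4 of them, at 0.577 and 0.936 CPM.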

How the data were processed

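Cultured ASCs were sequenced by the authors in 3 libraries per group, and groups were taken from the titles the authors gave the samples. Raw read counts per gene and library were deposited, with gene positions and lengths. The submitters' processing notes name CASAVA 1.8, Bowtie 0.12.2, featureCounts 1.5.0-p3 and the builds mm8 and mm10. Start and end equalled those of GENCODE M21 (GRCm38) for 53499 of 54532 genes. Read length, strandedness and the treatment of reads with several matches are not given in the sources used here. Splitting of reads between Saa1 and Saa2 could therefore alter their counts.

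Counts were filtered with filterByExpr, scaled by TMM and tested with edgeR 4.0.16 (R 4.3.3, limma 3.58.1, DESeq2 1.42.0), by the quasi-likelihood F-test over all 9 libraries without covariates, with Benjamini-Hochberg adjustment over the 16526 genes tested and a threshold of 0.05. The test was checked on simulated counts. Fold changes of the members come from CPM means, and where every library of a group had at most 3 reads they are bounds against 3 reads per library. FPKM was calculated here from TMM-scaled counts. Errors are SDs over 3 libraries. Python 3.11.15, pandas 2.3.3, numpy 2.4.6 and matplotlib 3.10.9 were used for tables and plots.

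The members and all lists were chosen with earlier results of these data known. Named were the members, genes of the lists, tested genes within 200 kb of a member, and the 3 genes closest in profile to Saa3, Hp and Lcn2 each. Ldha, Tph1 and the rest of the neighbours fall under this rule. Alternatives were DESeq2, other size factors, prior counts, filters, a fit without the uninvolved group, a replicate block, a fold cutoff and leaving out each library. No same-numbered libraries were treated as paired, since the sources used here name no pairing. Correlations of their deviations were between -0.0514 and 0.0950, which does not exclude one. Values of 1 tested transcription factor are not reported here.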

Additional observations from a re-analysis of the deposited data

How the results depend on the processing

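No member with reads in all libraries changed sign under any alternative. Of the values that answer a comparison, 173 stayed the same and 19 moved. The median log2 fold change of the members (-7.38 for PVASCs and -7.69 for Ab-ASCs against Sub-ASCs, and -0.99 for PVASCs against Ab-ASCs) depended on Saa1 and Saa2, whose fitted values rest on the prior count. It was -7.66 for PVASCs against Sub-ASCs with DESeq2, and with at least 10 reads in every library -6.41, -3.83 and -1.88 in this order, since these genes then drop out. In a fit of only the groups compared it was -1.84 for PVASCs against Ab-ASCs. With genes at 3 reads set at their bounds, an alternative chosen after seeing the data, it was -6.41, -4.94 and -1.92. Leaving out each library in turn gave -9.61 to -6.87, -7.82 to -7.62 and -1.12 to -0.87. The first end, -9.61, came without PVASC replicate 1, which holds the only 2 reads of Saa2 in PVASCs.

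Leaving out a library gave 10954 to 12736 genes called for PVASCs against Sub-ASCs, 8294 to 9675 for PVASCs against Ab-ASCs and 11976 to 12714 for Ab-ASCs against Sub-ASCs. Requiring a log2 fold change of 1 or more in size left 5328, 2551 and 6241 genes in this order. For PVASCs against Ab-ASCs it turned the split from 4088 higher and 5308 lower to 1673 and 878, and the fit of only those groups gave 4305 and 4149. For PVASCs against Sub-ASCs, 5735 higher and 5893 lower became 5759 and 5666 with DESeq2 and 5851 and 5773 with RLE size factors. In 5 cases the median of a list in a comparison changed sign under 1 alternative: the other acute-phase genes between PVASCs and Ab-ASCs went from -0.19 to 0.03 without PVASC replicate 3, and the receptors from -0.08 to 0.00 in the fit of only those groups, hepatocyte markers there from 2.16 to -0.42 with no low-count filter, neutrophil and macrophage markers in Ab-ASCs against Sub-ASCs from 0.61 to -0.55 with at least 10 reads in every library, and binding partners there from -0.26 to 0.03 without Ab-ASC replicate 2. With that cutoff 11 of the signals, receptors, factors and partners were called between PVASCs and Ab-ASCs, instead of 41. At least 10 reads in every library left 9 other acute-phase genes called in each comparison with Sub-ASCs. With the replicate number as a block, 11458, 9183 and 12302 genes were called, in this order as well, the members' medians were -7.40, -0.99 and -7.68, and of the 64 other acute-phase genes, signals, receptors, factors and partners tested 1 was lost and 1 gained in Ab-ASCs against Sub-ASCs. Hepatocyte markers called in PVASCs against Sub-ASCs went from 2 to 1, neutrophil and macrophage markers from 9 to 8 in Ab-ASCs against Sub-ASCs and from 8 to 7 in PVASCs against Ab-ASCs, and proliferation genes from 9 to 10 in the last. Same-numbered libraries did not deviate together, but such correlations cannot exclude a pairing, and whether the numbers mark one is not known. Lengths of main coding transcripts, also chosen after seeing the data, changed FPKM but not folds. Depth limits Saa1 and Saa2 outside Sub-ASCs and Orm1 in every group.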

Other observations

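Albumin (Alb), the main plasma protein of hepatocytes, was uneven between libraries of the same group. It had 48 reads in Ab-ASC replicate 1 and 52 reads in PVASC replicate 2, and 0 to 7 reads in each of the 7 other libraries. Of the 10 hepatocyte markers, Alb among them, 10 and 9 had reads in these 2 libraries, against 3 or 4 in each other library. Hp was the highest of its group in both of these libraries, at 71.0 CPM against 59.5 and 60.3 in the other Ab-ASC libraries and at 10.5 CPM against 10.1 and 10.2 in the other PVASC libraries. Lcn2 was likewise the highest of its group in both, at 8.05 CPM against 6.84 and 5.66, and at 3.56 CPM against 3.30 and 3.43. Saa3 was the highest of its group in the first (52.1 CPM) and the lowest in the second (12.7 CPM). The only reads of Orm1 in PVASCs, 2 in number, were in PVASC replicate 2. Both libraries were singled out after their values were seen.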
